A study of Mus musculus with 6 samples.

Results

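The guanylate-binding proteins are a family of large GTPases, and 10 of their mouse genes were followed here: Gbp2, Gbp3, Gbp4, Gbp5, Gbp6, Gbp7, Gbp8, Gbp9, Gbp10 and Gbp11. They were taken by gene name from a deposited table of spleen RNA sequencing, in which they occupied 7 of 44794 loci that carry a gene name. Gbp4, Gbp8 and Gbp9 shared a merged locus and so had a common value, and so did Gbp6 and Gbp10. All spleens were from mice given imiquimod, which activates the RNA sensor TLR7, on 3 occasions a week over 4 weeks. The controls were B6.Sle1b (3 libraries), a C57BL/6 line with the lupus susceptibility interval Sle1b. The receptor-deficient libraries were Sle1b.IFNγR-/- (3 libraries), which carries the same interval and lacks the interferon-γ receptor. Every mouse in both groups thus carried Sle1b and received imiquimod, and no untreated or Sle1b-free group was analysed here. The comparison asks which transcripts of a TLR7-stimulated, autoimmune-prone spleen depend on interferon-γ signalling. Ages were not given in the sources used here, nor whether different mice gave the libraries of a group, and the p-values cover only the spread among the libraries, which may be technical.

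Guanylate-binding proteins belong to the dynamin superfamily. They are low in resting cells and are strongly induced by interferon-γ, which acts through its receptor, the kinases JAK1 and JAK2 and transcription factors that include IRF1. These act at the gamma-activated site and the interferon-stimulated response element. Type I interferon also acts at the response element and can induce the family. In infected macrophages the proteins gather on pathogen vacuoles and bacteria in the cytosol, where they work with immunity-related GTPases and promote inflammasome activation.

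The values are scaled fragment counts, that is, sequenced fragments per locus that the authors rescaled between libraries by quartile. The libraries corresponded to between 4394283 and 6349836 fragments. Only a part lay in named loci: 27.0%, 17.5% and 19.95% in B6.Sle1b replicates 1, 2 and 3. In the Sle1b.IFNγR-/- libraries this part was 19.2% to 19.8%. The ribosomal level was the median log2 level of 29 ribosomal protein genes around their mean over libraries. It was 1.31, -0.38 and 0.075 in B6.Sle1b replicates 1, 2 and 3. In the 3 Sle1b.IFNγR-/- libraries it lay between -0.21 and -0.17. B6.Sle1b replicate 1 therefore stood apart before any result, and values without it are given below. Ifngr1, the ligand-binding receptor chain, gave scaled counts of 81.5, 34.5 and 63.7 in the controls and 43.7, 21.4 and 23.96 in the receptor-deficient libraries. Ifngr2, the signalling chain, averaged 11.0 ± 3.09 in the controls and 6.72 ± 2.95 in the receptor-deficient libraries (SD, n = 3 each). Both overlapped between groups (log2 difference of Ifngr1 -0.98, SE 0.41, while Ifngr2 was too low to test). Since the labels do not say which chain was disrupted, and transcripts of a disrupted gene may persist, neither gene checks the genotype. All listed markers of B cells, T cells and red pulp macrophages, the defining cells of spleen, were above 0 in each of the 6 libraries. Most receptor genes that spleen is not known to use, described below, were above 0 too. A value above 0 therefore does not identify the tissue.

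The 10 genes lie in 2 clusters. On chromosome 3 (GRCm38), Gbp5, Gbp7, Gbp3 and Gbp2 lie in that order on the plus strand between 142493978 and 142638008, with the family gene Gbp2b between Gbp3 and Gbp2. On chromosome 5, Gbp8, Gbp9, Gbp4, Gbp10, Gbp6 and Gbp11 lie on the minus strand between 105014150 and 105346472. GENCODE release 21 annotates 9 of the 10 as protein-coding and Gbp11 as a polymorphic pseudogene. Gbp10 and Gbp6 share much sequence: 73.3% of the 50-base stretches of Gbp10 transcripts also occurred in Gbp6 transcripts. In the other direction it was 45.9%. Between loci the overlap was smaller, from 0.0% of the 50-base stretches of Gbp5 to 19.2% of those of Gbp11. How the authors treated fragments that fit several places is not given in the sources used here, so fragments may have been divided among the chromosome 5 loci, Gbp11 most of all.

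The promoters are shown because interferon-γ acts on these genes through elements close to the start of transcription. RefSeq promoter sequences (GRCm38.p6, 250 bases before to 50 after the start, plus strand) were at hand for the 4 chromosome 3 genes. Capitals mark matches to the interferon-stimulated response element, searched as GAAA and GAAA with any 2 bases between them (GAAA-NN-GAAA, on the other strand TTTC-NN-TTTC), and to the gamma-activated site, searched as TTCNNNGAA, which reads the same on both strands.
Gbp5, chr3:142496684-142496983: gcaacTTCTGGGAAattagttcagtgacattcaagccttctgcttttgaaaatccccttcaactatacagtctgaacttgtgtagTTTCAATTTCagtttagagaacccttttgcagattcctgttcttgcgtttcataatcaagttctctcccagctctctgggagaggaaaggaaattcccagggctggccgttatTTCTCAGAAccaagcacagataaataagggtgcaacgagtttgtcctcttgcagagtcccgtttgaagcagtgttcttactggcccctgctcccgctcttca
Gbp7, chr3:142530086-142530385: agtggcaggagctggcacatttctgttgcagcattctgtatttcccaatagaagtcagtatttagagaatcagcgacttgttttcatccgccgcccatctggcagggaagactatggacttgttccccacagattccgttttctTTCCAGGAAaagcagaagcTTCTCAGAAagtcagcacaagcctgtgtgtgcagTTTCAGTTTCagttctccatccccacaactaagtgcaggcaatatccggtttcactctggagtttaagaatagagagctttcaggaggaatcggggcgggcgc
Gbp3, chr3:142559794-142560093: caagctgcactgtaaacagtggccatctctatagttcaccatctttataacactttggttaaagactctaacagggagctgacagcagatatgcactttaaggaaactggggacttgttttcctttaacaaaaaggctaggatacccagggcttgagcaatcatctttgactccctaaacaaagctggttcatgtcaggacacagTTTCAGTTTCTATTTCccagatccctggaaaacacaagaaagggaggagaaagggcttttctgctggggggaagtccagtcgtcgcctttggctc
Gbp2, chr3:142620413-142620712: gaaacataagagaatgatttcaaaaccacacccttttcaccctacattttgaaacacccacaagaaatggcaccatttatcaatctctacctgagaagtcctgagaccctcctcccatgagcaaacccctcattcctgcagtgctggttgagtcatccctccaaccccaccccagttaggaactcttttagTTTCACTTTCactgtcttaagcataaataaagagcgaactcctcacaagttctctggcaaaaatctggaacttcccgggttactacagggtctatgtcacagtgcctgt
Each of these 4 promoters held the response element, against 3.44% of 32851 RefSeq promoters of the same length. Its first base lay at -59 in Gbp2, -53 in Gbp7 and -165 in Gbp5, counted from the first transcribed base. In Gbp3 it occurred as 2 overlapping matches, starting at -45 and -39. The second start annotated for Gbp3 (chr3:142560106-142560405) held neither motif. The gamma-activated site occurred 2 times each in Gbp5 and Gbp7 and was not found in the windows of Gbp3 and Gbp2, against 8.30% of all promoters with at least 1. A match describes the letters only. GENCODE places the first base of Gbp5 upstream of the RefSeq start used here, outside this window.

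Gbp2, which coats pathogen vacuoles and bacteria in mouse macrophages, gave scaled counts of 56.0, 24.7 and 32.8 in the controls and 36.7, 15.7 and 29.9 in the receptor-deficient libraries. The values interleaved, with only B6.Sle1b replicate 1 above every library of the other group. The means were 37.8 ± 16.3 and 27.5 ± 10.7 (SD, n = 3 each), and the log2 difference, Sle1b.IFNγR-/- minus B6.Sle1b on the log2(value + 1) scale, was -0.45 (SE 0.43). It was -0.13 without B6.Sle1b replicate 1, -0.10 without Sle1b.IFNγR-/- replicate 2, -0.71 without B6.Sle1b replicate 2 and -0.69 without Sle1b.IFNγR-/- replicate 1. Limma's Benjamini-Hochberg adjusted p over 19227 loci was 0.99976, and it had this value for each of the 6 member loci that could be tested.

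Gbp3, found with Gbp2 at the Toxoplasma vacuole of mouse cells, had 48.9, 6.58 and 12.2 in the controls against 6.995, 12.4 and 5.99 in the receptor-deficient libraries. B6.Sle1b replicate 1 stood far above the rest, and the other 5 libraries lay between 5.99 and 12.4 with the groups mixed. The log2 difference was -0.91 (SE 0.72), the most negative in the family, and it was -0.14 without that library and -1.4997 without B6.Sle1b replicate 2. These values rest on few fragments, from 5 to 48 per library.

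Gbp5, which in mouse macrophages takes part in inflammasome activation, was the only tested member with a higher mean in Sle1b.IFNγR-/-. It had 39.7, 32.1 and 29.1 in the controls and 22.7, 48.3 and 56.3 in the receptor-deficient libraries. Replicates 2 and 3 without the receptor lay above every control library and replicate 1 lay below them all. The log2 difference was 0.24 (SE 0.39). Leaving out Sle1b.IFNγR-/- replicates 1, 2 or 3 gave 0.63, 0.10 and -0.0052, and leaving out B6.Sle1b replicates 1 or 3 gave 0.37 and 0.15.

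Gbp7, linked in mouse macrophages to delivery of the phagocyte oxidase and autophagy proteins to bacterial vacuoles, shares its locus with a clone-named gene and had 125, 66.6 and 92.8 in the controls and 50.7, 93.3 and 85.05 in the receptor-deficient libraries. The groups overlapped, with the highest library a control and the lowest one without the receptor. It averaged 94.9 ± 29.4 in the controls and 76.3 ± 22.6 in the others (SD, n = 3 each), a log2 difference of -0.31 (SE 0.34). This was -0.089 without B6.Sle1b replicate 1, -0.044 without Sle1b.IFNγR-/- replicate 1, -0.54 without B6.Sle1b replicate 2 and -0.48 without Sle1b.IFNγR-/- replicate 2.

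The merged locus of Gbp6 and Gbp10, genes needed for interferon-γ-dependent control of intracellular bacteria in mouse macrophages, was the only one of the 7 loci, and 1 of the 6 tested, whose groups did not overlap. Its scaled counts were 198, 116 and 129 in the controls and 99.7, 85.4 and 100.6 in the receptor-deficient libraries, from between 76 and 194 fragments per library. All 3 control libraries thus lay above all 3 libraries without the receptor. The means were 148 ± 43.8 and 95.2 ± 8.53 (SD, n = 3 each). The log2 difference was -0.59 (SE 0.29, 95% confidence interval -1.21 to 0.029), with an unadjusted limma p of 0.060 and an adjusted p of 0.99976. Without B6.Sle1b replicate 1 it was -0.36, and with the ribosomal level as a covariate -0.35. After scaling to the ribosomal protein genes the groups overlapped and the difference was -0.068, beside a median of 0.42 over all loci tested. Among all tested loci 5.19% had groups that did not overlap with lower values in Sle1b.IFNγR-/-, and 3.51% with higher values.

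The merged locus of Gbp4, Gbp8 and Gbp9 held the most fragments of the family, between 112 and 435 per library. Its scaled counts were 443, 132 and 218 in the controls and 160, 191 and 134 in the receptor-deficient libraries. The range without the receptor lay wholly inside the control range. The log2 difference was -0.54 (SE 0.38), and it was -0.082 without B6.Sle1b replicate 1 and -0.95 without B6.Sle1b replicate 2. As the 3 genes share a value, none of them can be read alone.

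Gbp11 lay under the mean of 10 needed for the test, with 5.09, 10.7 and 2.81 in the controls and 6.12, 4.495 and 3.59 in the receptor-deficient libraries. These correspond to between 3 and 13 fragments per library, and the groups overlapped.

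**Figure D1:**
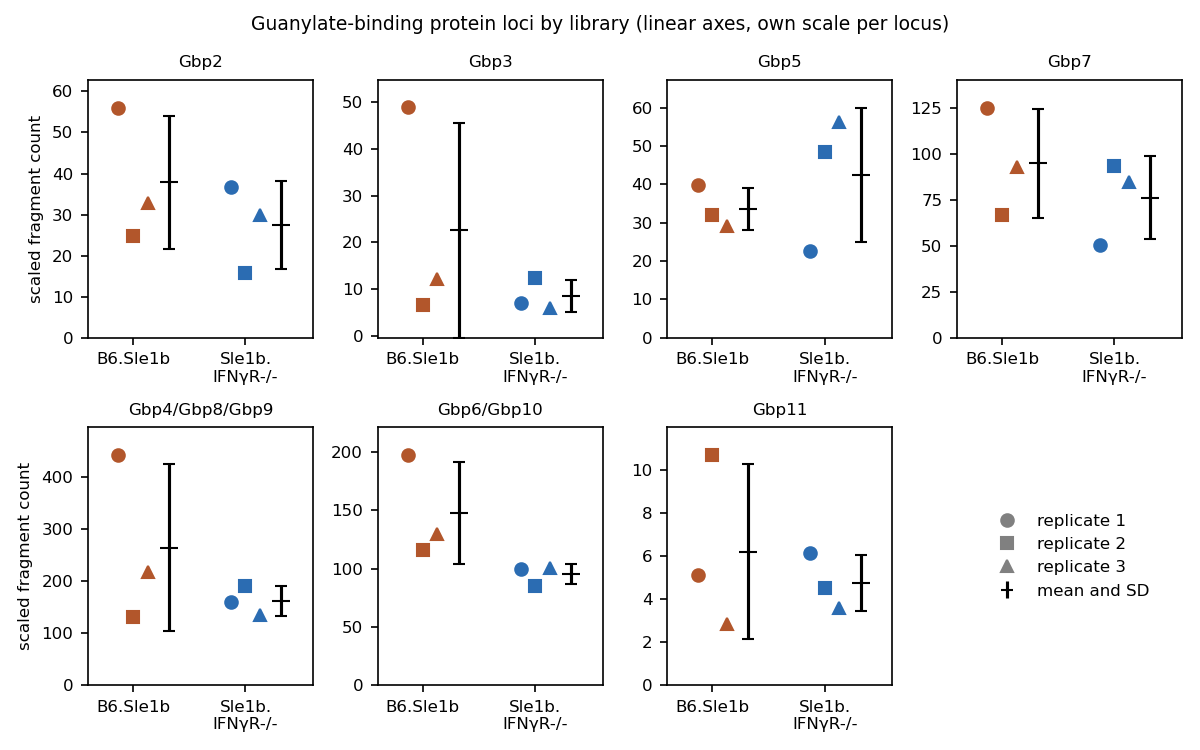
Scaled fragment count (y axis, linear, own scale in each panel) of the 7 loci in the 3 B6.Sle1b libraries (orange) and the 3 Sle1b.IFNγR-/- libraries (blue), with group means and SD in black and replicates by symbol. B6.Sle1b replicate 1 is the highest library in 5 panels, at 443 for Gbp4/Gbp8/Gbp9, while Gbp5 peaks at 56.3 in Sle1b.IFNγR-/- replicate 3 and Gbp11 at 10.7 in B6.Sle1b replicate 2.

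To compare levels between members, scaled counts were divided by the annotated exonic length. In B6.Sle1b the order was Gbp7 (16.9 ± 5.24 per kb), Gbp4/Gbp8/Gbp9 (16.5 ± 10.1), Gbp2 (15.04 ± 6.47), Gbp6/Gbp10 (15.03 ± 4.46), Gbp3 (6.91 ± 7.04), Gbp5 (5.07 ± 0.83) and Gbp11 (2.30 ± 1.51; SD, n = 3 each). The first 4 did not differ beyond their spread, and neither did Gbp6/Gbp10 and Gbp3 or Gbp3 and Gbp5, while every Gbp5 value lay above every Gbp11 value. In Sle1b.IFNγR-/- the levels were 13.6 ± 4.02 per kb for Gbp7, 10.9 ± 4.26 for Gbp2, 10.1 ± 1.78 for Gbp4/Gbp8/Gbp9, 9.69 ± 0.87 for Gbp6/Gbp10, 6.40 ± 2.64 for Gbp5, 2.59 ± 1.05 for Gbp3 and 1.76 ± 0.48 for Gbp11. Gbp5 and Gbp3 thus stood in the opposite order, but their values overlapped in each group. The first 4 again lay within their spread of each other, and all 4 lay above Gbp5 in mean. These lengths are from the annotation, and transcripts that the authors assembled may be longer.

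The level at which a gene counts as expressed was set beside 1457 receptor genes of the olfactory, vomeronasal and trace-amine families, which spleen is not known to use. Their median over the 6 libraries was 1.68 per exonic kb, with 3.81 as the upper quartile. Gbp11, at a mean of 2.03 per kb, lay above 55.8% of these genes, so its signal was not distinguishable from theirs. That they are silent in these spleens was not tested. Gbp3 (4.75 per kb) lay above 79.5% and Gbp5 (5.73 per kb) above 83.6% of them. Gbp6/Gbp10, Gbp2, Gbp4/Gbp8/Gbp9 and Gbp7, between 12.4 and 15.3 per kb, lay above 94.4% to 95.7%. Without B6.Sle1b replicate 1, Gbp3 stayed between 1.83 and 3.79 per kb in each library, under the 3.81 above. That quartile is over means of the 6 libraries. In Sle1b.IFNγR-/- replicate 2 the library's own upper quartile was 3.779 per kb, just under the 3.786 of Gbp3. What share of the members' fragments is background of this kind was not tested.

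**Figure D2:**
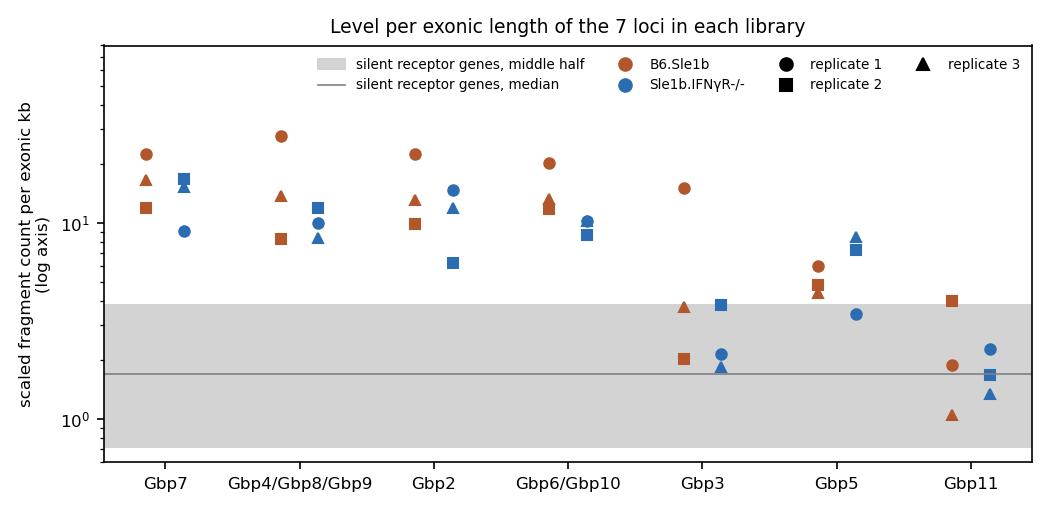
Scaled fragment count per exonic kb (y axis, log scale) of the 7 loci in each library, ordered by their mean in B6.Sle1b (orange; Sle1b.IFNγR-/- in blue). The grey band spans the quartiles (0.72 to 3.81 per kb) of 1457 receptor genes that spleen is not known to use, labelled silent. The quartiles and the median (1.68, line) were taken over the mean of the 6 libraries. All Gbp11 values but the 3.97 of B6.Sle1b replicate 2 fall inside the band.

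Across the family, 5 of 6 tested loci had lower and 1 had higher values in Sle1b.IFNγR-/-, with a median log2 difference of -0.49, but 3 were lower after scaling to ribosomal protein or to housekeeping genes, when Gbp2 and Gbp7 lay above 0. Over all 19227 loci tested the median was -0.083, and 58.1% had a difference below 0. None of the 6 passed the adjusted p of 0.05, and 0.0% of all loci did. At an unadjusted p under 0.05 limma called 0 of the 6 and 3.10% of all loci. The 95% confidence intervals of the 6 differences reached from -2.47 at their lowest bound, in Gbp3, to 1.08 at their highest, in Gbp5, and all 6 included 0. Without B6.Sle1b replicate 1 the family median was -0.11, beside 0.019 for all loci. Leaving out B6.Sle1b replicate 2, the library of lowest ribosomal level, gave a family median of -0.73, beside -0.17. With the ribosomal covariate it was -0.061, beside 0.027 for all loci, and limma called 0 of the 6 and 0.0676% of all loci. Scaling to the ribosomal protein genes gave 0.025, beside 0.42 for all loci, and scaling to housekeeping genes gave -0.022, beside 0.37. Without B6.Sle1b replicate 1, limma called 0 of the 6 and 0.026% of all loci.

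The summed scaled count of the 7 loci showed the same dependence. It was 916, 388 and 517 in the controls and 383, 451 and 416 in the receptor-deficient libraries. The mean without the receptor was 0.686 times the control mean, yet B6.Sle1b replicate 2 lay below replicates 2 and 3 of the other group. The chromosome 5 loci summed to 646, 258 and 351 against 266, 281 and 238, and the chromosome 3 loci to 270, 130 and 167 against 117, 170 and 177. Per 1000000 of the scaled count at named loci, the family held 591, 424 and 500 in the controls and 383, 432 and 401 in the receptor-deficient libraries, which again overlapped. Divided by the ribosomal level, the sums were 370, 504 and 491 against 431, 519 and 479, with B6.Sle1b replicate 1 now the lowest of the 6. In bulk spleen, fewer cells of a type and less RNA per cell cannot be told apart.

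The make-up of the sum overlapped between the groups. Gbp4/Gbp8/Gbp9 gave 41.5% ± 7.27 of it in B6.Sle1b and 38.8% ± 5.67 in Sle1b.IFNγR-/- (SD, n = 3 each), and Gbp6/Gbp10 gave 25.5% ± 4.17 and 23.1% ± 3.67. The share of Gbp5 was 4.34%, 8.26% and 5.62% in the controls and 5.94%, 10.7% and 13.5% in the receptor-deficient libraries. Its 2 highest shares came from libraries without the receptor, and the ranges overlapped.

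**Figure D3:**
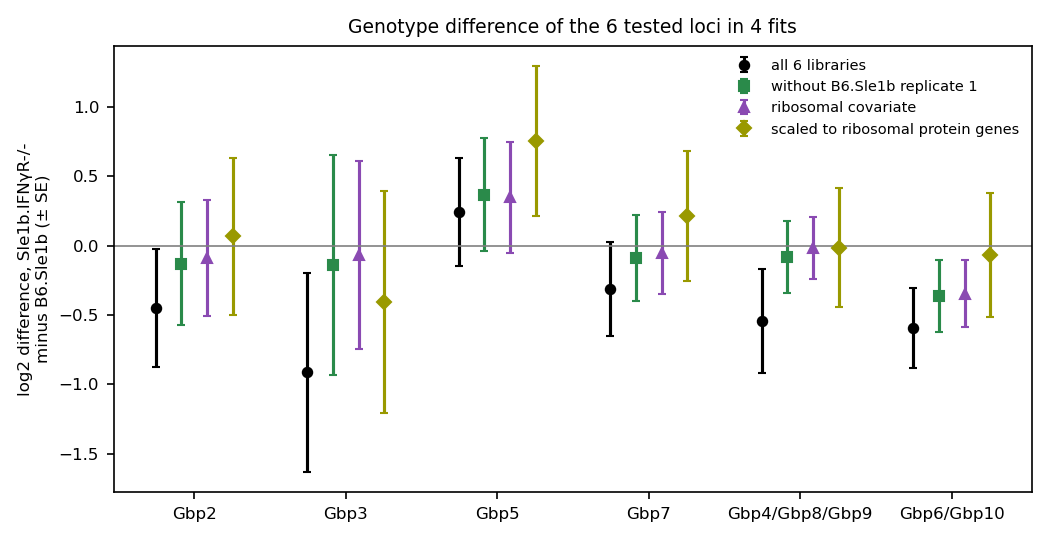
Log2 difference (y axis, Sle1b.IFNγR-/- minus B6.Sle1b, with SE) of the 6 tested loci in 4 fits: all 6 libraries, without B6.Sle1b replicate 1, with the ribosomal level as a covariate, and scaled to the ribosomal protein genes. Gbp6/Gbp10 goes from -0.59 to -0.068 and Gbp4/Gbp8/Gbp9 from -0.54 to -0.016 across these fits, while Gbp5 stays above 0 and Gbp2 and Gbp7 lie above 0 only after scaling. That scaling also moved the median of all loci tested, not drawn, from -0.083 to 0.42.

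Gbp2b, the remaining family gene of the chromosome 3 cluster, lies outside the 10. Its scaled counts were 53.0, 68.2 and 35.6 in the controls and 43.7, 34.8 and 81.5 in the receptor-deficient libraries, with a log2 difference of -0.017 (SE 0.38). The groups covered nearly the same range, and B6.Sle1b replicate 1 was not its highest control.

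Genes of the interferon-γ pathway were described by lists, with no list test. In the list of the receptor, its kinases and transcription factors, 10 of 12 tested loci had lower and 2 higher values, none passed, and the median was -0.35, or -0.079 without B6.Sle1b replicate 1 (6 of 12 lower) and -0.81 without B6.Sle1b replicate 2 (11 of 12 lower). Irf1, a transcriptional activator of the family, had 33.6, 15.6 and 11.2 in the controls against 8.74, 22.5 and 7.19 in the receptor-deficient libraries, which overlapped. Irf9, of the type I interferon complex, shares its locus with Rnf31 and had 112, 78.9 and 76.9 against 72.6, 107 and 35.9. Pias1, an inhibitor of interferon signalling, had 134, 46.9 and 68.4 against 42.8, 41.6 and 39.5, without overlap (log2 difference -0.86, SE 0.38, limma adjusted p = 0.99976).

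The other interferon-inducible GTPases of the dynamin superfamily had 12 of 15 tested loci lower and 3 higher, with 0 past the threshold. Their median was -0.80, and -0.31 without B6.Sle1b replicate 1. Tgtp2, an immunity-related GTPase that attacks parasite vacuoles, had 131, 18.1 and 47.8 in the controls and 21.9, 19.1 and 19.2 in the receptor-deficient libraries. B6.Sle1b replicate 2 lay below the whole other group there. The merged locus of Igtp and Irgm2, regulators of that class, had 224, 42.7 and 68.4 against 33.2, 45.0 and 53.9, and Irgm1, another regulator, had 83.6, 74.0 and 103 against 108, 84.3 and 125. Irgm1 was thus higher in mean without the receptor, with overlap. Gvin1, a very large inducible GTPase, had 624, 108 and 222 against 92.7, 114 and 99.4. Mx2, an antiviral GTPase, had 35.7, 34.5 and 19.7 against 6.995, 16.9 and 13.2, and Gm4841 had 26.5, 26.3 and 14.999 against 12.2, 2.25 and 4.79. In these last 2 genes the groups did not overlap, and their log2 differences of -1.25 (SE 0.46) and -1.86 (SE 0.66) had limma adjusted p of 0.99976.

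The other interferon-γ-induced genes, among them Ifi47, itself an immunity-related GTPase, had 14 of 17 tested loci lower and 3 higher. None passed, and the median was -0.56, or -0.40 without B6.Sle1b replicate 1. Cxcl9, a T cell-attracting chemokine, had a log2 difference of -3.14 (SE 0.53), against -0.91 at most among the guanylate-binding loci, and that of Ifi47 was -0.38 (SE 0.27). With the ribosomal level as a covariate Cxcl9 passed, at a limma adjusted p of 0.012 and a log2 difference of -2.47, and it also passed after scaling to the ribosomal protein genes (-2.64, adjusted p = 0.032). Leaving out B6.Sle1b replicate 2 gave -3.59 and an adjusted p of 0.012, and leaving out replicate 1 gave -2.52 and 0.16. Psmb9, an immunoproteasome subunit, had 78.5, 11.5 and 25.3 in the controls and 12.2, 7.87 and 7.19 in the receptor-deficient libraries, which overlapped by B6.Sle1b replicate 2 alone. Serpina3f, a protease inhibitor, had 84.6, 29.6 and 63.7 against 18.4, 20.2 and 39.5. Zbp1, a sensor of Z-form nucleic acid that stands in this list and in the type I list, had 161, 59.2 and 67.5 against 52.5, 53.9 and 39.5, without overlap (log2 difference -0.83, SE 0.38). Ifi47 lay at 110, 97.0 and 115 in B6.Sle1b and at 83.1, 73.0 and 91.0 in Sle1b.IFNγR-/-, without overlap. Type I interferon signature genes had 12 of 18 lower and 6 higher with a median of -0.18, and 0 passed. That median was -0.042 with 9 of 18 lower without B6.Sle1b replicate 1, and without B6.Sle1b replicate 2 it was -0.26 with 18 of 18 lower. Irf7, the transcription factor that amplifies the type I response, had 42.8, 7.40 and 22.5 against 5.25, 13.5 and 4.79, and Oasl2 and Rsad2, antiviral effectors, had log2 differences of -0.69 (SE 0.43) and -0.46 (SE 0.34), with overlap in all 3 genes. Leaving out B6.Sle1b replicate 1 gave -0.80 for Irf7, from -1.35, -0.15 for Oasl2 and -0.12 for Rsad2, and Rsad2 lay at 0.058 after scaling to the ribosomal protein genes. After scaling to the ribosomal protein genes, the medians were 0.17 for the receptor list, -0.28 for the other GTPases, -0.059 for the other interferon-γ-induced genes and 0.34 for the type I list, beside 0.42 for all loci. Whether the guanylate-binding loci differ from these lists was not tested.

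Guanylate-binding proteins promote inflammasome activation, and among inflammasome and pyroptosis genes 5 of 10 tested loci were lower and 5 higher, with a median of 0.026. Aim2, the sensor of DNA in the cytosol, had 68.3, 37.0 and 55.3 in the controls against 31.5, 33.7 and 24.0 in the receptor-deficient libraries, without overlap (log2 difference -0.80, SE 0.35, limma adjusted p = 0.99976). Casp4, the receptor caspase for bacterial lipopolysaccharide, had 34.6, 0.82 and 22.5 against 15.7, 28.1 and 26.4, with the lowest and the highest value both in B6.Sle1b. The ATG8 conjugation machinery, which helps to place the GTPases on vacuoles, had 3 of 7 lower and 4 higher with a median of 0.013. Of the prenylation enzymes, which attach the lipid anchor that some members carry, 4 of 6 were lower and 2 higher with a median of -0.055, and Icmt, a methylase of prenylated proteins, did not overlap between groups at 40.3 ± 9.62 and 24.5 ± 2.37 (SD, n = 3 each). Nek7, which licenses the NLRP3 inflammasome, had 199.7, 43.6 and 77.8 against 57.7, 56.2 and 64.7, and Casp8, which can take the place of caspase-1, had 154, 59.2 and 60.0 against 55.1, 68.6 and 51.5. Atg3, an ATG8-conjugating enzyme, had 87.6, 31.2 and 25.3 against 24.5, 28.1 and 31.1. In all 3 genes the groups overlapped and B6.Sle1b replicate 1 was the highest library. None of the loci in these 3 lists passed the test. Their medians moved to either side of 0 with single controls left out: without B6.Sle1b replicate 1 they were 0.087 for inflammasome genes, 0.29 for ATG8 conjugation and 0.14 for prenylation, and without B6.Sle1b replicate 2 they were -0.22, -0.34 and -0.27. After scaling to the ribosomal protein genes they were 0.55, 0.51 and 0.46, beside 0.42 for all loci.

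**Figure D4:**
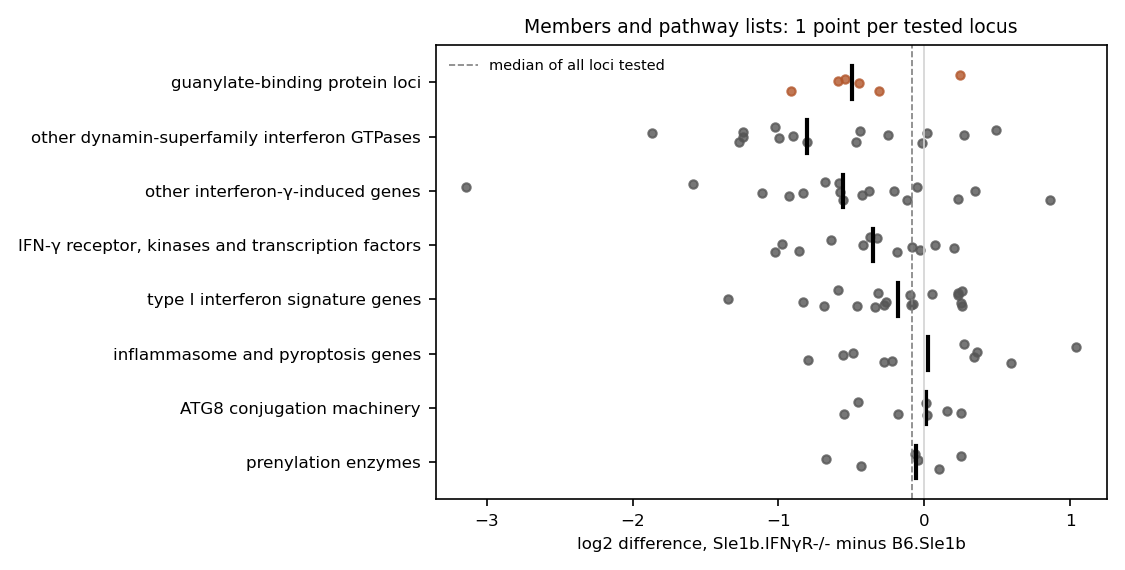
Log2 difference (x axis, Sle1b.IFNγR-/- minus B6.Sle1b) of each tested locus, 1 point per locus, for the guanylate-binding proteins (orange) and 7 pathway lists (grey), with list medians as black bars and the median of all loci tested (-0.083) as a dashed line. The medians run from -0.80 for the other dynamin-superfamily GTPases and -0.49 for the guanylate-binding loci to 0.026 for inflammasome genes, and Cxcl9 is the point at -3.14.

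The genes that flank the clusters were examined with the members. Of 12 tested protein-coding neighbours, the 3 nearest on each side of each cluster, only Pkn2 had groups that did not overlap. This kinase gene, 153 kb beyond the chromosome 3 cluster, had 125, 81.4 and 75.9 against 61.2, 75.3 and 71.9. Among all tested loci 5.19% had groups without overlap and lower values in Sle1b.IFNγR-/-, and 3.51% without overlap and higher values. Abcg3, a transporter gene and the nearest neighbour on chromosome 5 at 31.4 kb, had 127, 46.3 and 68.4 against 78.8, 63.4 and 68.3, with a log2 difference of -0.080 (SE 0.36). The nearest on chromosome 3, Pdlim5 at 98.3 kb, had a log2 difference of 0.057 (SE 0.32).

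The 19227 tested loci were ranked by the likeness of their pattern over the 6 libraries to the members' mean. Members, predicted genes, clone names, pseudogenes, small RNAs, other non-coding genes, and immunoglobulin and T cell receptor segments were skipped. The 5 highest of the rest began with Asxl2, a chromatin regulator gene, with a Pearson r of 0.998, and Ssr3, of the endoplasmic reticulum translocon, with 0.995. Then came the Igtp and Irgm2 locus with 0.994, the MHC class II chain gene H2-Aa with 0.993 and Cnbp, a nucleic acid-binding protein gene, with 0.993. These are descriptions over 6 libraries that share the 1 library of high ribosomal level. Without B6.Sle1b replicate 1 the r of the same 5 loci lay between 0.95 and 0.985. They were picked on libraries that include the remaining ones, so this r cannot tell whether the likeness rests on that library. H2-Aa had 1031, 335 and 491 in the controls and 330, 370 and 435 in the receptor-deficient libraries, so like the family it peaked in B6.Sle1b replicate 1.

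Markers of the cell types that make up spleen also spread widely among the controls. The summed scaled count of 9 monocyte and inflammatory macrophage markers ranged from 370 to 1469 in B6.Sle1b and from 435 to 495 in Sle1b.IFNγR-/-, with 7 of 8 tested markers lower and a median log2 difference of -0.32. The 10 red pulp macrophage markers summed to between 433 and 1420 against 610 to 696, with 5 lower and 5 higher. The 8 B cell markers summed to between 823 and 1797 against 870 to 956, with 7 of 8 lower, and the 9 T cell markers to between 274 and 496 against 286 to 308, with 4 of 6 tested lower. The 8 plasma cell markers had all 5 tested loci lower, with a median of -1.26, and a sum of 198 to 994 against 161 to 189, with Tnfrsf17 at 0 in every library. Of the other lists, conventional dendritic cell markers summed to between 206 and 353 against 214 to 240, neutrophil markers to 140 to 377 against 152 to 176, and natural killer cell markers to 41.1 to 59.1 against 59.5 to 62.9. Erythroid markers summed to between 231 and 3440 against 648 to 977, stromal and endothelial markers to 314 to 575 against 344 to 383, and pancreatic markers to 34.7 to 88.8 against 31.5 to 57.5, with Ins2 at 0 in every library. The erythroid markers had 2 of 8 lower, with a median of 0.17. The 12 housekeeping genes had 11 lower and 1 higher, with a median of -0.41. None of these markers passed the test with all 6 libraries and genotype alone. The medians without B6.Sle1b replicate 1 were -0.0044 for monocytes (4 of 8 lower), 0.11 for B cells (3 of 8), -0.025 for T cells (3 of 6), 0.38 for red pulp macrophages (1 of 10), -0.54 for plasma cells (5 of 5), 1.15 for erythroid cells (0 of 8) and 0.20 for the housekeeping genes (5 of 12). Without B6.Sle1b replicate 2 they were -0.62, -0.63, -0.24, -0.28, -1.72, -0.60 and -1.09 in the same order. With the ribosomal covariate the erythroid median was 1.24, and the erythroid genes Slc4a1, the red cell anion exchanger, and Hba-a1, an alpha globin, passed as higher (log2 differences 1.32 and 1.27, limma adjusted p = 0.012 and 0.019). After scaling to the ribosomal protein genes 5 of 5 plasma cell, 2 of 8 monocyte and 1 of 8 B cell markers had lower values. Their medians were then -0.74, 0.21 and 0.24, beside 0.42 for all loci tested, so a count above 0 does not by itself mean higher than most loci. The part of cell composition in the members' values was not tested.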

How the data were processed

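RNA from 6 spleen samples was sequenced after library preparation with the Ovation RNA-seq System V2 (NuGEN), per the labels' protocols. The submitters' processing notes name Cufflinks 2.2.1, TopHat2 2.0.9 and CASAVA, and GRCm38 as the build. The deposited signal is fragment counts per locus that the authors scaled by quartile, as the file's name and header show. Loci recur in the 1530481 rows and were collapsed to 426574, of which 44794 carried a gene name, with 0 loci whose repeated rows disagreed. The 24 other per-sample columns were not used. Values were whole multiples of a library's step, within 0.01, for 99.8% of positive values. This gave fragments per value (a floor of 3 fragments is 2.47 to 3.59 scaled counts, counting error only). As the rest could not be recovered, tests for counts were not run.

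Loci named with a mean of at least 10 (19227) were tested with limma 3.58.1 in R 4.3.3 on log2(value + 1), with genotype as the sole term, a trend of variance on level and Benjamini-Hochberg adjustment with a threshold of 0.05. A fold change on this scale understates that of low genes. A locus matching several names counted once, and a name at several loci took the locus of highest mean. Members and the 20 gene lists (241 of 253 entries matched) were chosen with earlier results of these data known. Genes named are the members, the receptor chains, Gbp2b, up to 4 of smallest p per list, cluster neighbours and the 5 most similar loci. Irf1, Irgm1 and Ifi47 were chosen after their values were seen, as were the examples given among the genes of smallest p. So was the comparison with receptor genes that spleen is not known to use. In simulated data with independent noise at each locus, the median estimates of the fit came near the fold changes put in. No shift of a whole library was simulated, and the share of changed loci called is not reported here. The simulation therefore does not show the power of the test in these libraries. Coordinates and exonic lengths are from GENCODE release 21 on GRCm38. Python 3.11.15, pandas 2.3.3, numpy 2.4.6, scipy 1.17.1 and matplotlib 3.10.9 were used. Neither a strand setting nor an annotation release is given in the sources used here, so overlapping genes are not separated. The values of 1 gene of the receptor list are not reported here.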

Additional observations from a re-analysis of the deposited data

How the results depend on the processing

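Alternatives were other scalings, filters, pseudocounts, robust limma, a ribosomal covariate, a replicate block, loci summed by name and leaving out each library. None brought a member past the adjusted p of 0.05, where the smallest was 0.368, for Gbp4/Gbp8/Gbp9 without B6.Sle1b replicate 2. The filters, robust limma, the replicate block and summing loci by name cannot change a member's log2 difference, only its error. Of 111 member differences under all alternatives, 106 kept their sign, with these fixed ones included. The exceptions were Gbp2 and Gbp7 when scaled to ribosomal protein genes (0.066 and 0.21) or to housekeeping genes (0.018 and 0.16), and Gbp5 without Sle1b.IFNγR-/- replicate 3 (-0.0052, in a range up to 0.63 over the libraries left out). The family median of -0.49 became 0.025 with ribosomal scaling, -0.022 with housekeeping scaling and -0.061 with the ribosomal covariate. The median of all loci moved in the same direction, from -0.083 to 0.42, 0.37 and 0.027 in that order. Leaving out each library in turn gave family medians of -0.73 to -0.11. The number of lower members, 5 of 6, became 3 with ribosomal or housekeeping scaling. It was 3 of 3 with a minimum mean of 50, where fewer loci were tested. The log2 ratio of the summed level went from -0.54 to 0.067 with ribosomal and -0.067 with housekeeping scaling, and from -0.78 to -0.12 over the libraries left out. Over all loci, limma called 0 genes as deposited, 1 scaled to the total of named loci, 5 with ribosomal scaling, 13 with the ribosomal covariate and 0 to 5 with a library left out (5 without B6.Sle1b replicate 1 and 5 without replicate 2). The cause was not tested. Whether the replicate numbers pair the libraries is not given in the sources used here. Deviations of same-numbered libraries correlated at 0.012, -0.027 and -0.011, and those of differently numbered libraries at -0.034 to 0.045. Such values cannot settle the pairing. With the replicate number as a block 0 genes were called. The family median stayed at -0.49, which a block holding both groups equally cannot change. Planned count tests were not run, because whole fragments could not be recovered for all values. Depth limits Gbp3 (5 to 48 fragments) and Gbp11 (3 to 13) most.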
